A study of Homo sapiens with 14 samples.

Results

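The AAVS1 and puromycin resistance sgRNAs are 7 controls within a pooled library of 9077 sgRNAs, 3 of which are named after the AAVS1 locus and 4 after the puromycin resistance gene (PURO). They were chosen by their IDs alone, as every sgRNA whose name starts with AAVS1 or puro, and no measured value is part of that rule. All 7 were found in the tables of both screens. They were set against 1000 non-targeting (NT) sgRNAs of the same library, whose IDs start with NT. The rest of the library comprised 7999 sgRNAs against sites of m6A, a methylation mark on RNA, and 71 sgRNAs named after genes.

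The study used this library in 2 base editor screens. In the first, A549 lung carcinoma cells carrying FNLS-BE3, a cytosine base editor, were infected with the library, selected with blasticidin and kept in culture, and genomic DNA was sequenced at day 0 (1 library) and at days 10, 20 and 30 (2 libraries each). In the second, H1 human embryonic stem cells that expressed an adenine base editor, FNLS-ABE7.10(AW), were infected with the library, differentiated towards definitive endoderm and sorted into CXCR4- and CXCR4+ cells in 3 independent screens, which gave 6 libraries. CXCR4 is a cell-surface receptor used as a marker of definitive endoderm. According to the methods, in both lines the editor came from a lentivirus that also carried puromycin resistance, and the cells were treated with puromycin before the library entered, whereas the library vector carried blasticidin resistance. The methods do not state whether puromycin was in the medium during the screens. It is thus not known whether the resistance gene was free of selection then.

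A control sgRNA shows how far the abundance of an sgRNA drifts when no function under selection is hit. NT sgRNAs have no intended site in the genome, whereas AAVS1 sgRNAs, by their name, are meant to direct the editor to a genomic safe harbor. AAVS1 is a site within an intron of PPP1R12C where inserted DNA is commonly tolerated. PPP1R12C, which encodes a regulatory subunit of myosin phosphatase, lies on the minus strand at chr19:55602282-55629005 of GRCh37. The puromycin resistance gene encodes an acetyltransferase that inactivates puromycin. A cytosine editor can turn glutamine and tryptophan codons into stop codons, and an adenine editor does not make these stops. The IDs of the 4 PURO sgRNAs give the codon meant, namely Trp 76, Gln 106, Gln 108 and Trp 123. Gln 106 and Gln 108 lie 2 codons apart, and the 3 AAVS1 sgRNAs share a locus by name, so the members of a target are not independent replicates of it.

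The A549 libraries held between 14925937 and 16457222 reads and the H1 libraries between 8076271 and 11341078. Values are the normalized counts of the authors, and log2-fold changes (LFCs) were taken after a pseudocount of 1. The median NT sgRNA had 1712 normalized counts at day 0 and between 1734 and 1779.6 in the later A549 libraries, and between 1042 and 1083 in the H1 libraries. Replicate libraries were no duplicates, as their reads differed by a chi-square of at least 23.8 per sgRNA.

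At day 0 in A549 cells the 7 sgRNAs were spread over nearly the whole range of the library. AAVS1_3 ranked 388 from the top of 9077 with 3059.8 normalized counts, and 943 of the 1000 NT sgRNAs lay below it. AAVS1_1 ranked 3033 with 1894 counts, above 591 NT sgRNAs. AAVS1_2 ranked 8809 with 752 counts, above 23 NT sgRNAs only. The 3 sgRNAs of this locus thus started from very unequal levels, as did those of the resistance gene. Puro-Trp(76) ranked 471 with 2935 counts and puro-Gln(108) ranked 860 with 2607. Puro-Trp(123) ranked 4190 with 1668 counts and puro-Gln(106) ranked 5197 with 1505, both near the NT median. Even the rarest member rested on 770 reads, a share of 0.00482% of the library (exact 95% binomial interval 0.00449% to 0.00517%), and such an interval covers counting error only, since PCR reads are not independent molecules.

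Over 30 days in culture AAVS1_1 and AAVS1_3 became rarer step by step, AAVS1_2 stayed near its starting level, puro-Gln(108) was more frequent at day 30, and the other 3 PURO sgRNAs differed in sign between the replicates of day 30. None of the 7 had a mean LFC over day 0 beyond 1 in size at day 30, the threshold used in the study for this screen, which 1.52% of all sgRNAs passed towards lower and 0.705% towards higher abundance. limma, fitted across all 9077 sgRNAs, called none of them at an adjusted p under 0.05, against 1 call in the whole table (0.0110%). All comparisons with day 0 rest on the same single day 0 library, which was assumed to vary like the others. Replicates differed more with time, by a median size among NT sgRNAs of 0.16 at day 10 and 0.31 at day 30 (log2). The fit took 1 spread for all days, so its day 30 p values may be too small and its intervals too narrow.

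AAVS1_3 had 3059.8 normalized counts at day 0, followed by 2825 and 2319 on day 10, 2577 and 1934 on day 20 and 2003 and 1471 on day 30 (replicates 1 and 2). Every later library lay below day 0, and within each replicate each time point lay below the one before. The mean LFC went from −0.26 ± 0.20 (SD, n = 2) at day 10 to −0.45 ± 0.29 at day 20 and −0.83 ± 0.31 at day 30. Replicate 2 was the lower of the pair at all 3 time points, and at day 30 it alone was past −1, at −1.06 against −0.61 in replicate 1. Of the 1000 NT sgRNAs, 24 had a lower mean LFC at day 30. The limma estimate at day 30 had a 95% interval of −1.45 to −0.22 with an adjusted p of 0.294. With the replicate number as a block the adjusted p of limma was 0.0421, which put AAVS1_3 among 176 sgRNAs called in that fit (1.94%), 25 of them NT sgRNAs. Because day 0 is a lone library outside the blocks, p values of that fit may be too small for this reason as well.

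AAVS1_1 had 1894 normalized counts at day 0, followed by 1769.9 and 1590.0 on day 10, 1566.5 and 1431 on day 20 and 1360.4 and 1191 on day 30. It too lay below day 0 in all 6 later libraries and fell at each time point in both replicates, by smaller amounts. Its mean LFC was −0.17 ± 0.11 (SD, n = 2) at day 10, −0.34 ± 0.09 at day 20 and −0.57 ± 0.14 at day 30, where 84 NT sgRNAs were lower. The limma adjusted p at day 30 was 0.346, and it was 0.105 with the block. Being below day 0 in all 6 later libraries was seen for 17.1% of all sgRNAs and 15.1% of NT sgRNAs, and lower values at every step in both replicates for 3.28% and 2.20%. These 2 AAVS1 sgRNAs were the members that met either description.

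AAVS1_2, the rarest of the 7, had 752 normalized counts at day 0, followed by 751 and 908 on day 10, 684 and 838 on day 20 and 693 and 854 on day 30. Replicate 1 lay below day 0 and replicate 2 above it throughout, so the libraries of a time point fell on both sides of the starting level. The mean LFC at day 30 was 0.03 ± 0.21 (SD, n = 2), 515 NT sgRNAs were lower, and the limma adjusted p was 0.979. Its sign at day 30 turned when the libraries were rescaled to the same total (−0.02). Its mean LFC lay above those of AAVS1_1 and AAVS1_3 by more than the SD of any of the 3, a difference that was not tested.

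Among the PURO sgRNAs, puro-Gln(108) had 2607 normalized counts at day 0, followed by 2684 and 2753 on day 10, 2571 and 2252 on day 20 and 3486 and 3576 on day 30. Its level stayed within a narrow range until day 10, was somewhat lower at day 20 and was highest at day 30. The mean LFC at day 30 was 0.44 ± 0.03 (SD, n = 2), with a limma 95% interval of 0.05 to 0.82, an adjusted p of 0.337 and 864 NT sgRNAs below it. From day 20 to day 30 the LFC was 0.44 in replicate 1 and 0.67 in replicate 2, after −0.06 and −0.29 from day 10 to day 20. Together with AAVS1_1 and AAVS1_3 it was 1 of 3 members with an unadjusted limma p under 0.05 at day 30, a level that 13.0% of all sgRNAs and 13.8% of NT sgRNAs reached. Leaving out any 1 library of day 10 or day 20 left AAVS1_3 as the 1 member at that level, which 8.26% to 9.45% of all sgRNAs reached in those fits.

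Puro-Gln(106), aimed 2 codons away, had 1505 normalized counts at day 0, followed by 1471 and 1761 on day 10, 1345 and 1672 on day 20 and 1314 and 1963 on day 30. Its replicates lay on opposite sides of day 0 at all 3 time points, and the mean LFC at day 30 was 0.09 ± 0.41 (SD, n = 2). The limma adjusted p was 0.922, with an interval of −0.59 to 0.78. This interval covered most of that of puro-Gln(108), and the difference between these neighbours was not tested.

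Both tryptophan sgRNAs showed a like split at day 30. Puro-Trp(76) had 2935 normalized counts at day 0, followed by 3239 and 3270.3 on day 10, 3256 and 3155 on day 20 and 3591 and 2643 on day 30. It was above day 0 in 5 of the 6 later libraries, with a mean LFC at day 30 of 0.07 ± 0.31 (SD, n = 2) and a limma adjusted p of 0.912. Puro-Trp(123) had 1668 normalized counts at day 0, followed by 1776 and 1706 on day 10, 1886 and 1777 on day 20 and 2234 and 1640.5 on day 30. This sgRNA was also above day 0 in all later libraries but replicate 2 of day 30, and its mean LFC there was 0.20 ± 0.31 with an adjusted p of 0.757. Replicate 2 less replicate 1 at day 30 was −0.44 for puro-Trp(76) and −0.45 for puro-Trp(123) on the log2 scale, and the median size of this difference among NT sgRNAs was 0.31.

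Taken as a median over the members and set against the NT median in each library, the AAVS1 sgRNAs lay at −0.20 ± 0.10 (SD, n = 2 libraries) at day 10, −0.35 ± 0.10 at day 20 and −0.60 ± 0.14 at day 30 on the log2 scale. The PURO sgRNAs lay at 0.07 ± 0.04, 0.06 ± 0.04 and 0.24 ± 0.13. The NT median itself had an LFC of 0.03 and 0.04 in the day 30 libraries, and the median of all sgRNAs 0.01 and 0.00. The medians over members describe 3 and 4 sgRNAs and were not tested. With 3 AAVS1 sgRNAs the median is the value of 1 of them, which was AAVS1_1 in the libraries of day 10 and day 30. As means over the sgRNAs less the NT mean, the day 30 values were −0.47 ± 0.08 for AAVS1 and 0.19 ± 0.05 for PURO. The middle 95% of NT sgRNAs widened from −0.45 to 0.45 at day 10 to −0.83 to 0.76 at day 30, and AAVS1_3 lay just below its lower end at day 30 while the other 6 members lay within it.

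The comparison of day 30 with day 10 does not use the day 0 library. Both day 30 libraries of AAVS1_1 and AAVS1_3 lay below both of day 10, which held for 18.9% of all sgRNAs, and those of puro-Gln(108) lay above, which held for 19.5%. The LFC was −0.58 for AAVS1_3, −0.40 for AAVS1_1 and 0.38 for puro-Gln(108), with limma adjusted p values of 0.415, 0.489 and 0.400. No sgRNA in the table passed an adjusted p of 0.05 in this comparison, and 984 passed an unadjusted p of 0.05 (10.8%), AAVS1_3 and puro-Gln(108) among them. The remaining 4 members had LFCs between −0.10 and 0.14, and their day 10 and day 30 libraries overlapped. At day 10 and day 20 over day 0 no member had an unadjusted p under 0.05, next to 1.40% and 2.79% of all sgRNAs. With the block, AAVS1_3 at day 20 had an unadjusted limma p of 0.0158, a level under 0.05 that 8.41% of all sgRNAs reached, and an adjusted p of 0.579.

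In the H1 screens all 7 members passed the filter on low values, a mean of 200 or more normalized counts in both populations, which kept 9044 sgRNAs and 997 NT sgRNAs. With limma giving the p in place of the authors' software, none met the thresholds of the study for enrichment. These are a one-sided p under 0.05 with a median LFC (CXCR4+ over CXCR4-) beyond 0.58 in size. They were met by 1.74% of the tested sgRNAs towards CXCR4- and 2.05% towards CXCR4+. No sgRNA in the table and no member had an adjusted p under 0.05 in limma. An unadjusted two-sided p under 0.05 was reached by 340 sgRNAs (3.76%) and by none of the 7. The CXCR4- library of screen 3 has a later sample number than all others and an unexplained note among its labels, and every LFC of screen 3 rests on it. The order of abundance resembled that in A549 cells in that AAVS1_2 was the rarest of the 7 in every library of both screens.

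AAVS1_2 had 291, 259.7 and 683 normalized counts in CXCR4- cells and 568, 471 and 677.5 in CXCR4+ cells (screens 1, 2 and 3). It was more frequent in CXCR4+ cells in screens 1 and 2, by an LFC of 0.96 and 0.86, and level in screen 3, at −0.01, where its CXCR4- count was the highest of the 6. Its median LFC of 0.86 lay above 993 of the 997 NT sgRNAs and past 0.58, a size that 3.99% of the tested sgRNAs exceeded upwards. By single screen, its LFC lay above those of 982, 932 and 517 NT sgRNAs (screens 1, 2 and 3). Only 19 and 26 NT sgRNAs had lower counts than AAVS1_2 in CXCR4- cells of screens 1 and 2. These ranks are against NT sgRNAs of all abundances, and a comparison with equally rare NT sgRNAs was not made. The mean LFC was 0.60 ± 0.53 (SD, n = 3), and the one-sided limma p was 0.0873. Without screen 3 this sgRNA met both thresholds of the study with the limma p, as did 4.34% of the sgRNAs tested without that screen towards CXCR4+.

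AAVS1_1 had 1202, 1420.3 and 1124 normalized counts in CXCR4- cells and 1236, 1307 and 2358 in CXCR4+ cells. A single library, CXCR4+ of screen 3, stood above the 5 others, with an LFC of 1.07 in that screen against 0.04 and −0.12. The median LFC was 0.04 and the mean 0.33 ± 0.64 (SD, n = 3). AAVS1_3 had 1634, 1751 and 2376 in CXCR4- cells and 1632, 2167 and 2021 in CXCR4+ cells, with LFCs of 0.00, 0.31 and −0.23, so its populations overlapped and its screens differed in sign. Neither of the 2 AAVS1 sgRNAs that became rarer in A549 cells had an LFC of 1 sign in all H1 screens. Of the tested sgRNAs 12.3% were above 0 in all screens and 12.6% below, so most lacked a common sign.

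Puro-Gln(108) had 1388, 1645 and 1847 normalized counts in CXCR4- cells and 1915, 2449 and 1911 in CXCR4+ cells. All 3 CXCR4+ libraries lay above all 3 CXCR4- libraries, as for 4.40% of the tested sgRNAs and 3.71% of NT sgRNAs. The LFC was 0.46, 0.57 and 0.05, with a median of 0.46 that fell short of the size threshold. For this sgRNA the limma p was 0.0451 one-sided and 0.0902 two-sided. Puro-Trp(76) had 1632, 1256 and 1584 in CXCR4- cells and 2206, 1617 and 1949 in CXCR4+ cells, and its LFCs of 0.43, 0.36 and 0.30 had the smallest spread of the 7 (SD 0.07, n = 3). Its limma p was 0.0494 one-sided and 0.0988 two-sided. How many sgRNAs reached a one-sided p under 0.05 regardless of the size of the LFC was not counted. These 2 PURO sgRNAs were the members above 0 in all 3 screens, as were 12.3% of the tested sgRNAs, and their limma adjusted p was 0.9997, like that of the other members. limma estimates the mean LFC and not the median, and this mean was 0.36 for puro-Gln(108) and 0.37 for puro-Trp(76). The two-sided 95% interval was −0.06 to 0.79 for puro-Gln(108) and −0.07 to 0.80 for puro-Trp(76). These p values and intervals come from a fit that did not pair the populations of a screen. With the screen as a block, the limma adjusted p of both was 0.924.

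Puro-Trp(123) had 1758, 653 and 805 normalized counts in CXCR4- cells and 818, 776 and 736 in CXCR4+ cells. The CXCR4- library of screen 1 held more than the 5 others, and the LFC there was −1.10, lower than in all but 6 NT sgRNAs, against 0.25 and −0.13 in the other screens. Its median LFC was −0.13. Without screen 2 this sgRNA met both thresholds of the study towards CXCR4- cells with the limma p, as did 2.30% of the sgRNAs tested without that screen. Puro-Gln(106) had 1238, 1347 and 990.4 in CXCR4- cells and 1039, 1262 and 1424 in CXCR4+ cells, with LFCs of −0.25, −0.09 and 0.52 and a median of −0.09.

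Over the members, the median LFC less that of NT sgRNAs was 0.04 ± 0.18 (median and SD over 3 screens) for AAVS1 and 0.20 ± 0.12 for PURO. By screen it was 0.04, 0.34 and 0.01 for AAVS1 and 0.09, 0.33 and 0.20 for PURO. The SD among single NT sgRNAs was 0.45, 0.58 and 0.43 in these screens. With 1 screen left out, the AAVS1 value ran from 0.03 without screen 2 to 0.18 without screen 1 and 0.19 without screen 3. The middle 95% of NT sgRNAs, as medians over the screens, ran from −0.65 to 0.58, and of the 7 members AAVS1_2 lay outside it.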

How the data were processed

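Normalized sgRNA counts of 13 libraries (7 from A549 cells, 6 from H1 cells) were analysed. The authors trimmed adapters with Cutadapt, counted sgRNA reads by MAGeCK, normalized them by library and deposited 1 table per screen, whose values were treated as a signal, namely reads times 1 factor per library. The submitters' processing notes also name CASAVA 1.4. Reads per library were read back from these factors, since 100% of values were whole multiples within 0.05 reads. An H1 library from before differentiation was not analysed here.

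LFCs were computed after a pseudocount of 1. limma 3.58.1 in R 4.3.3 (lmFit and eBayes with a variance trend) was fitted on all 9077 sgRNAs in A549 cells, with day as a factor, and on 9044 in H1 cells, with population as a factor, and Benjamini-Hochberg adjustment ran over all sgRNAs tested. The study took its H1 p values from MAGeCK, for which limma stands here. The limma script was tested on simulated data of both designs. The simulated libraries of a screen had equal spread and no link by replicate number, unlike the real A549 libraries. That test therefore cannot show how the fits behave under either feature. A count test planned on whole reads was not run. The deposited values were tested as normalized values, and the reads were used for depth, the counting interval and the chi-square between libraries. The remaining steps were run in Python 3.11.15 with pandas 2.3.3, numpy 2.4.6 and scipy 1.17.1. Gene coordinates came from a GENCODE annotation of GRCh37. The files do not give the positions of the sgRNAs.

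Samples were grouped by their labels. A549 libraries of the same replicate number deviated together (correlations over sgRNAs of 0.570, 0.636 and 0.394 between days), and both populations of an H1 screen stem from 1 infection according to the methods (correlations of 0.0823, 0.0648 and 0.287 within screens 1, 2 and 3, and −0.178 to 0.108 between screens, so that screen 3 alone stands out), so the number was used as a block in an alternative fit. The study calls the A549 replicates biologically independent and does not say what a replicate number follows from day to day. The p values thus measure the spread between these samples, which the A549 fit took as equal on all days although it grew with time. All 7 members, and no other sgRNA, are named. The rule on IDs, the tests and the alternatives were chosen with earlier results of these data known.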

Additional observations from a re-analysis of the deposited data

How the results depend on the processing

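The alternatives were pseudocounts of 0.5 and 10, rescaling to the same total or NT median, the filter on low values, leaving out each library but day 0 (A549) or each screen (H1), the replicate number as a block, no variance trend and a linear trend over days. The count test was not run. The block gave 1 member called at day 30 over day 0, AAVS1_3, and changed no other call of a member. It raised the calls in the whole table at day 30 from 1 to 176 and the linear trend raised them to 152, while leaving out a library gave 0 to 4. Members with an unadjusted p under 0.05 then numbered between 1 and 3 at day 30, between 0 and 3 at day 30 over day 10, and between 0 and 1 in H1, where the 1 was puro-Gln(108) without screen 3. In the same fits 8.26% to 24.1%, 3.26% to 22.4% and 2.65% to 5.10% of all sgRNAs were at that level. Members beyond a mean LFC of 1 at day 30 numbered between 0 and 1 when a library was left out, with AAVS1_3 past it without replicate 1 of day 30. Members past the H1 thresholds of the study numbered between 0 and 1, and the 1 was puro-Trp(123) without screen 2 and AAVS1_2 without screen 3. The AAVS1 value in H1 less that of NT sgRNAs was 0.34 as a mean over sgRNAs in place of 0.04 as a median.

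Directions turned in 26 of 441 recomputed values, and no member was called in a main fit. Many of the 441 could not turn, since settings such as the block or a left-out library of another day keep the LFC unchanged. AAVS1_2 at day 20 was −0.0021 after rescaling to the same total and −0.028 to the same NT median, and at day 30 it was −0.016 and −0.017 under these and −0.042 by the linear trend. AAVS1_3 in H1 was 0.0090 after rescaling to the same total. With a library left out, AAVS1_2 ran from −0.0024 to 0.27 at day 10, −0.14 to 0.16 at day 20, −0.12 to 0.18 at day 30 and −0.25 to 0.048 at day 30 over day 10. Puro-Gln(106) ran from −0.033 to 0.23, −0.16 to 0.15, −0.20 to 0.38 and −0.29 to 0.29. Puro-Trp(123) ran from −0.024 to 0.42 at day 30 and −0.085 to 0.36 over day 10, and puro-Trp(76) from −0.15 to 0.29 and −0.30 to 0.14. In H1 with a screen left out, AAVS1_1 ran from −0.040 to 0.55, AAVS1_3 from −0.12 to 0.15, puro-Gln(106) from −0.17 to 0.21 and puro-Trp(123) from −0.62 to 0.059. At day 30 AAVS1_1, AAVS1_3 and puro-Gln(108) kept their direction under all 14 alternatives. Several could not move the LFC, namely a left-out library of day 10 or 20, the block, the filter and no variance trend. All share the single day 0 library. With no library left out, their limma adjusted p values ran from 0.105 to 0.346, 0.0421 to 0.324 and 0.113 to 0.406. The cause of these changes was not tested. A single day 0 library and 2 libraries a day limit the A549 values, and editing at the sites was not measured in these files.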
